A study of Mus musculus with 6 samples.

Results

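Cpt1a, Cyp4a10 and Cyp4a31 are fatty acid oxidation genes of the liver. They were chosen by name from a deposited table of 1834 genes (3 of 1834), because all 3 had higher values in livers that received an adeno-associated virus (AAV) carrying Ly6d than in livers that received an AAV carrying green fluorescent protein (GFP). That contrast chose the genes, so their differences between the groups are given as a description, with no test. All 3 passed the filter on low values in all 6 libraries.

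The samples are bulk RNA from mouse liver. The AAV-Ly6d group (3 libraries) is labelled as overexpressing Ly6d, a small membrane-anchored protein, and the AAV-GFP group (3 libraries) as wild type with a GFP vector, both on the same diet. The study title names metabolic dysfunction-associated steatotic liver disease (MASLD), the accumulation of fat in the liver, and the comparison asks what Ly6d overexpression does to liver gene expression. The diet, strain, sex, age, vector promoter, dose and time after injection are not given in these sources, nor do they state that each library came from a separate animal. Spread between libraries may therefore be technical, and p-values cover that spread alone.

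Fatty acids are burned in the liver at several sites. Long-chain fatty acids enter mitochondria through the carnitine shuttle, whose gate is the liver isoform of carnitine palmitoyltransferase, the product of Cpt1a; malonyl-CoA, made by acetyl-CoA carboxylase during fat synthesis, blocks this gate. Very long chains are shortened in peroxisomes, and cytochrome P450 enzymes of the Cyp4a family add a hydroxyl group at the far (omega) end of fatty acids in the endoplasmic reticulum. The nuclear receptor PPARA, which is bound by fatty acids and is active in fasting, pairs with RXR on direct repeats of the hexamer AGGTCA and raises the transcription of all of these routes in rodent liver, with the Cyp4a genes among its most responsive targets.

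Cpt1a (ENSMUSG00000024900) lies on the plus strand of chromosome 19 from 3322334 to 3385733 (GRCm38, the mm10 assembly), and its longest annotated transcript has 19 exons and 4317 bases. Cyp4a10 (ENSMUSG00000066072) and Cyp4a31 (ENSMUSG00000028712) are neighbours on the plus strand of chromosome 4, from 115518264 to 115533649 and from 115563649 to 115579015, inside the cluster of Cyp4a genes. No other annotated gene overlaps any of the 3. The coding sequences of Cyp4a10 and Cyp4a31 are both 1530 bases long and differ at 52 of them (96.6% identity). Cyp4a32, the next gene of the cluster, is as near a copy (97.2% identity to Cyp4a10 and 96.0% to Cyp4a31), and it is not analysed here.

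The similarity bears on how far reads can be assigned to one copy, so the coding stretches that separate the pair least and most are shown, from the GENCODE M21 transcripts. The longest stretch without a difference runs from coding base 1279 to 1464, counted from the A of the start codon, and is 186 bases long in both genes:
Cyp4a10 and Cyp4a31, bases 1279 to 1464: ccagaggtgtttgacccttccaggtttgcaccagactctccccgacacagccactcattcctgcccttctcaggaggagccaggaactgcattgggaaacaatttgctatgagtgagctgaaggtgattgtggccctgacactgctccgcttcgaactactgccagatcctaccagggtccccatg
A read that falls inside this stretch cannot be assigned to either gene. The window of 60 bases with the most differences, 6 in all, runs from coding base 106 to 165, with the differing bases in capitals:
Cyp4a10, bases 106 to 165: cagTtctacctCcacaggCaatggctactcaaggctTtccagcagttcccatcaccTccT
Cyp4a31, bases 106 to 165: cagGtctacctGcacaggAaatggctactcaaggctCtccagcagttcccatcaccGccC
Of all windows of 50 bases along the longest Cyp4a10 transcript, 30.5% also occur in another Cyp4a gene, 15.3% in Cyp4a31 and 25.0% in Cyp4a32. Along the longest Cyp4a31 transcript 20.1% occur in another Cyp4a gene, and 21.8% in any other annotated gene, with 310 such genes matched. Along Cpt1a 0 of 4268 windows occur in any other annotated gene. The read length and the treatment of reads with several matches are not given in those sources either, so the split of reads between Cyp4a10 and Cyp4a31 is uncertain, whereas Cpt1a has no such copy.

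The promoter of Cpt1a is shown because the gene is a textbook PPARA target. It is the RefSeq window of 250 bases before to 50 bases after the start that RefSeq gives the gene (GRCm38.p6, chr19:3323051-3323350, plus strand). That start lies downstream of the GENCODE start given above, so the whole window is inside the gene as GENCODE annotates it. The sequence is shown with the match to the hexamer AGGTCA, read on the minus strand, in capitals:
Cpt1a promoter: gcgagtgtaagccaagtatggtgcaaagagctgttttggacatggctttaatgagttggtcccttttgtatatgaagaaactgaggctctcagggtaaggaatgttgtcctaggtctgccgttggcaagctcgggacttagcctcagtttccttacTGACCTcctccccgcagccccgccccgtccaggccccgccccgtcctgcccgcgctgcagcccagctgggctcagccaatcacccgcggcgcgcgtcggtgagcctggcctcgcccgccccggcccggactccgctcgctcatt
This match begins 94 bases before the RefSeq start, and 16.3% of all 32851 promoter windows of this length hold at least 1 such hexamer on either strand. The direct repeat AGGTCANAGGTCA, searched on both strands, has 0 matches in this window and is found in 13 of the 32851 windows. Among the 21 listed fatty acid genes of the table, 14 had a promoter entry, and 4 of these (Cpt1a, Lpin1, Plin5 and Cd36) hold the hexamer, against 17.7% of the 1245 table genes with an entry. The match is a property of the letters in the window and says nothing of binding.

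Values are the deposited normalised read counts, from libraries whose recovered reads over the 1834 genes summed to between 3835101 and 4359932 in AAV-Ly6d and between 3248078 and 3448888 in AAV-GFP. Ly6d itself had values of 3181, 1799 and 3275 in the AAV-Ly6d libraries, against 56.1, 9.68 and 182 in the AAV-GFP libraries. AAV-GFP replicate 2 stood apart on the first principal component (49.9, against -29.6 to -25.1 in the AAV-Ly6d libraries and 15.4 and 18.1 in the other AAV-GFP libraries; 73.9% of the variance), and log2 fold changes of the fatty acid genes are also given without it where they moved by over 1.5 times or a call changed. The genes of the table differ between these groups almost throughout: of 1780 tested genes 1504 (84.5%) had groups that did not overlap, 626 of them (35.2%) higher in AAV-Ly6d, and 782 (43.9%) passed limma at an adjusted p under 0.05, with 283 that rose (15.9%) and 499 that fell (28.0%). The group means of every gene in the table differ by at least 0.32 on the log2 scale, and the table was treated as chosen for a difference, so adjusted p-values over its genes come out too small, and a share of genes near these backgrounds is no result about the genes counted.

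Cpt1a had the smallest and the tightest difference of the 3 genes. Its value was 20340, 17417 and 19209 in the AAV-Ly6d libraries, against 13599, 10746 and 13797 in the AAV-GFP libraries. The groups did not overlap, and the lowest AAV-Ly6d value was 1.26 times the highest control. The means were 18989 ± 1474 in AAV-Ly6d and 12714 ± 1708 in AAV-GFP (SD, n = 3 each), a ratio of 1.49 and a log2 fold change of 0.58 on the log2(value + 1) scale. These values rest on 20924 and 17656 recovered reads in AAV-Ly6d replicates 1 and 3 and 9986 to 16350 per AAV-GFP library, so counting error is small beside the spread between libraries. Reads of AAV-Ly6d replicate 2 are not given. One read was worth 0.997 there, so its reads are close to its values. The coefficient of variation was 7.76% in AAV-Ly6d and 13.4% in AAV-GFP. Without AAV-GFP replicate 2, the lowest library, the log2 fold change was 0.47.

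Cyp4a10, the most abundant of the 3, varied more from library to library. It was at 40601, 32016 and 48433 in the AAV-Ly6d libraries, against 30419, 16597 and 17625 in the AAV-GFP libraries. The groups were barely apart: AAV-Ly6d replicate 2 was 1.05 times AAV-GFP replicate 1, the highest control, while the other controls were far lower. The means were 40350 ± 8211 in AAV-Ly6d and 21547 ± 7701 in AAV-GFP (SD, n = 3 each), a ratio of 1.87 and a log2 fold change of 0.94. Without AAV-GFP replicate 2 the log2 fold change was 0.78, and without AAV-GFP replicate 1 it was 1.22.

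Cyp4a31, a much less abundant copy of Cyp4a10, showed the largest relative difference. Its value was 975, 1511 and 1313 in the AAV-Ly6d libraries, against 677, 321 and 413 in the AAV-GFP libraries. All AAV-Ly6d libraries were above all AAV-GFP libraries, and the lowest was 1.44 times the highest control. The means were 1266 ± 271 in AAV-Ly6d and 470 ± 185 in AAV-GFP (SD, n = 3 each), a ratio of 2.69 and a log2 fold change of 1.47. Recovered reads numbered 1003 and 1207 in AAV-Ly6d replicates 1 and 3 and 298 to 700 in AAV-GFP. Without AAV-GFP replicate 2, again the lowest library, the log2 fold change was 1.23.

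**Figure D1:**
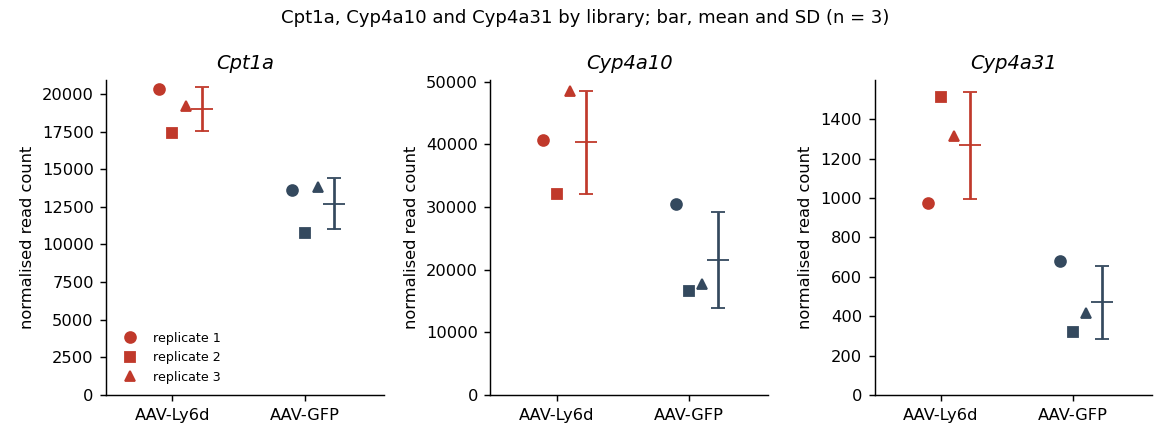
Normalised read count (linear axis from 0) of Cpt1a, Cyp4a10 and Cyp4a31 in each library, AAV-Ly6d left and AAV-GFP right; symbols are replicates and the bar is the mean with SD. In all 3 panels the groups do not overlap, with the smallest ratio of the lowest AAV-Ly6d to the highest AAV-GFP value, 1.05, for Cyp4a10 (32016 in AAV-Ly6d replicate 2 against 30419 in AAV-GFP replicate 1).

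Set against the length of the longest transcript, the order of the levels was the same in all 6 libraries, with Cyp4a10 above Cpt1a and Cpt1a above Cyp4a31. Cyp4a10 averaged 19132 ± 3894 per kilobase in AAV-Ly6d and 10217 ± 3651 in AAV-GFP (SD, n = 3 each). Cpt1a averaged 4399 ± 341 per kilobase in AAV-Ly6d and 2945 ± 396 in AAV-GFP, and Cyp4a31 averaged 505 ± 108 in AAV-Ly6d and 188 ± 73.7 in AAV-GFP. Over both groups this places Cyp4a10 at rank 27, Cpt1a at rank 73 and Cyp4a31 at rank 339 of 1779 tested genes with an annotated length. The distances between the 3 levels were larger than the spread within either group. Of all tested genes, 27.5% had a larger log2 fold change than Cpt1a, 13.8% a larger one than Cyp4a10 and 6.35% a larger one than Cyp4a31.

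Ratios between genes of the same library do not depend on how libraries were scaled. The per-kilobase ratio of Cyp4a10 to Cpt1a was 4.09, 3.76 and 5.16 in the AAV-Ly6d libraries, against 4.58, 3.16 and 2.61 in the AAV-GFP libraries. The groups overlapped, with AAV-GFP replicate 1 above 2 of the AAV-Ly6d libraries. Cyp4a31 amounted to 2.02%, 3.97% and 2.28% of Cyp4a10 per kilobase in AAV-Ly6d, against 1.87%, 1.62% and 1.97% in AAV-GFP. These groups did not overlap, but the gap between 2.02% and 1.97% is narrow, AAV-Ly6d replicate 2 carries most of the difference, and a small misassignment of Cyp4a10 reads would move this share.

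The cluster holds a second pair of near copies in the table, Cyp4a12a and Cyp4a12b, whose products hydroxylate arachidonic acid and are typical of male mouse liver. Their coding sequences are 98.5% identical, and 49.4% of the windows of 50 bases in Cyp4a12b occur in Cyp4a12a, so these values are uncertain too. Cyp4a12b had values of 2710, 2362 and 2016 in AAV-Ly6d, against 1199, 1065 and 227 in AAV-GFP, and rose by 1.82 on the log2 scale (SE 0.57, limma adjusted p = 0.0435). The lowest control, replicate 3, sets much of this size, and the log2 fold change without it was 1.05. Cyp4a12a was at 5670, 5835 and 6340 in AAV-Ly6d, against 5182, 4051 and 2024 in AAV-GFP (log2 fold change 0.77) and did not pass. Without AAV-GFP replicate 3 its log2 fold change was 0.37. Of the summed per-kilobase values of the 4 Cyp4a genes in the table, Cyp4a10 took 82.6 ± 3.10% in AAV-Ly6d and 83.1 ± 5.31% in AAV-GFP (SD, n = 3 each). It thus had the largest share of these 4 in both groups, as far as reads can be split between copies. Cyp4a genes outside the table do not enter this share.

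**Figure D2:**
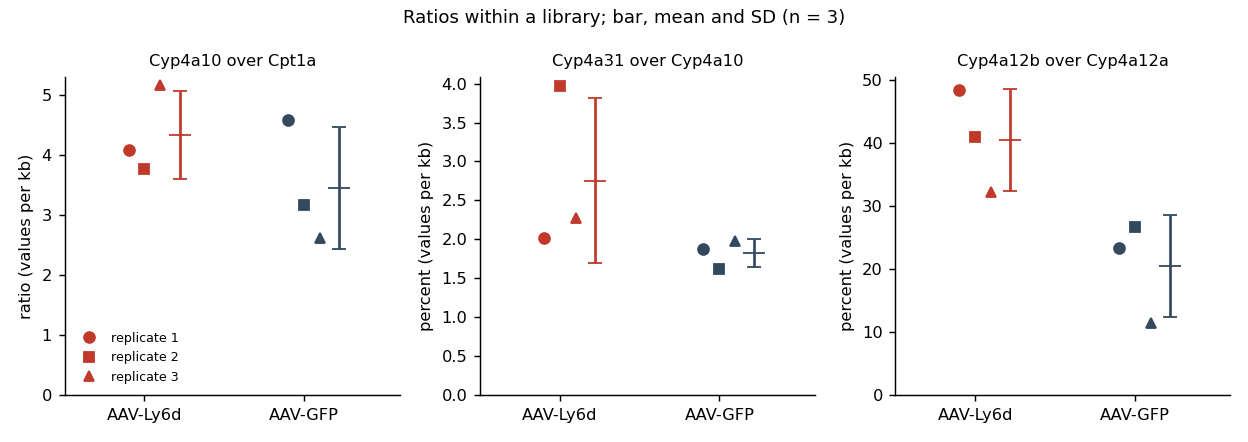
Ratios of values per kilobase within each library for Cyp4a10 over Cpt1a, Cyp4a31 over Cyp4a10 and Cyp4a12b over Cyp4a12a (axes from 0; symbols are replicates, bars the mean with SD), AAV-Ly6d left and AAV-GFP right. The groups overlap for Cyp4a10 over Cpt1a, and for Cyp4a31 over Cyp4a10 AAV-Ly6d replicate 2 stands highest at 3.97%.

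The pathway around these genes was thinly covered by the table. Of 139 other listed genes of fatty acid catabolism and of PPARA, 18 are in the table, and the other 121 are not analysed here, among them all 25 listed enzymes of mitochondrial beta-oxidation and all 7 of ketogenesis. Of the 18, 7 rose, 3 fell and 8 did not pass, which is 55.6% called against 43.9% of all tested genes, with limma adjusted p-values of the 10 called genes between 0.0331 and 0.0491. In 16 of the 18 the groups did not overlap, close to the 84.5% of the table. The direction leaned upward: 14 of the 18 log2 fold changes were above 0 and the median was 0.71, while 700 of the 1780 tested genes were above 0 and their median was -0.67. The lean was not particular to the listed genes: of 7 tested hepatocyte markers, 6 were above 0 and the median was 0.77. The lists were written with earlier results of these data known, so these counts are a description of the listed genes.

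In the carnitine shuttle, Crat, the carnitine acetyltransferase that buffers short acyl groups, rose by 0.60 on the log2 scale (SE 0.21, limma adjusted p = 0.0491). Its value was 3148, 2434 and 3483 in AAV-Ly6d, against 2214, 1671 and 2089 in AAV-GFP. The groups did not overlap, and Crat shares its locus with Dolpp1 and an antisense transcript on the opposite strand, whose reads cannot be told apart if counting ignored strand. Cyp4a12b, Ehhadh, Por, Retsat and Acaca overlap pseudogenes or other Gm-numbered gene models. Slc22a5, the plasma membrane carnitine transporter, had overlapping groups (1468 to 2310 in AAV-Ly6d and 1121 to 1657 in AAV-GFP) and did not pass. Acaca, which encodes an acetyl-CoA carboxylase, is the 1 gene in the table of 3 listed for malonyl-CoA. The other 2 are not analysed here. Acaca fell by 0.92 on the log2 scale (SE 0.30, limma adjusted p = 0.0460). Its value was 571, 738 and 651 in AAV-Ly6d, against 896, 1946 and 1066 in AAV-GFP, with the highest control, replicate 2, far above the rest. Without that library the log2 fold change was -0.59.

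Among peroxisomal genes, Ehhadh, the bifunctional enzyme of peroxisomal beta-oxidation and a classical PPARA target, rose by 0.84 (SE 0.27, limma adjusted p = 0.0463). It was at 14554, 27924 and 18777 in AAV-Ly6d, against 13601, 9308 and 10595 in AAV-GFP. AAV-Ly6d replicate 2 stood highest, as it did for Cyp4a31, and the log2 fold change without it was 0.58. Pex16, needed to build peroxisomal membranes, did not pass (log2 fold change 0.44). Pex16 overlaps Large2 on the opposite strand.

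Of the other omega oxidation genes, Por, the reductase that passes electrons to microsomal P450 enzymes including the Cyp4a family, rose by 1.36 (SE 0.38, limma adjusted p = 0.0405). Por was at 14313, 9849 and 11821 in AAV-Ly6d, against 7501, 2462 and 5328 in AAV-GFP, with replicate 2 the lowest control (log2 fold change 0.91 without it). Cyp4b1, a related P450 beside the Cyp4a cluster, went the other way and fell by 1.04 on the log2 scale, with 89.4, 193 and 122 in AAV-Ly6d, against 266, 235 and 300 in AAV-GFP. Among the Cyp4a and Cyp4b genes of the table, it is the only one that was lower in AAV-Ly6d.

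Neither of the 2 listed regulators in the table passed. Lpin1, a phosphatidate phosphatase that also acts as a coactivator of PPARA, ranged from 3838 to 8406 in AAV-Ly6d and from 717 to 4072 in AAV-GFP, with overlapping groups (log2 fold change 1.53). Leaving out AAV-GFP replicate 2 gave 0.86. Leaving out replicate 3 of that group gave 2.11, and Lpin1 then passed. Ppard, the relative of PPARA found in most tissues, was low, with 116 to 160 in AAV-Ly6d and 74.5 to 103 in AAV-GFP (log2 fold change 0.65). The receptor genes Ppara and Rxra are not analysed here.

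Among 6 further PPARA targets 3 rose, 1 fell and 2 did not pass. Plin5, a lipid droplet protein that couples droplets to mitochondria, rose by 0.84 (SE 0.20, limma adjusted p = 0.0331), with 2703, 2366 and 1884 in AAV-Ly6d, against 1362, 1145 and 1359 in AAV-GFP. Pnpla2, the lipase that frees fatty acids from droplets, rose by 0.97 and was at 2666, 2428 and 2487 in AAV-Ly6d, against 1589, 815 and 1663 in AAV-GFP. Without AAV-GFP replicate 2 its log2 fold change was 0.64. The hormone gene Fgf21 rose by 2.28 and was at 255, 462 and 362 in AAV-Ly6d, against 99.7, 20.4 and 174 in AAV-GFP. Without AAV-GFP replicate 2 it had a log2 fold change of 1.40. Cd36, a fatty acid uptake receptor, fell by 1.34 on the log2 scale, with 1601, 1133 and 1583 in AAV-Ly6d, against 2217, 3678 and 5777 in AAV-GFP. It is thus a listed target with the opposite direction to Cpt1a and the Cyp4a genes. Angptl4, an inhibitor of lipoprotein lipase (0.83), and Retsat, a retinol saturase (0.49), did not pass. Angptl4 had a log2 fold change of 0.40 without AAV-GFP replicate 2. Retsat passed without that library (0.61), and its log2 fold change was 0.31 without AAV-GFP replicate 3.

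**Figure D3:**
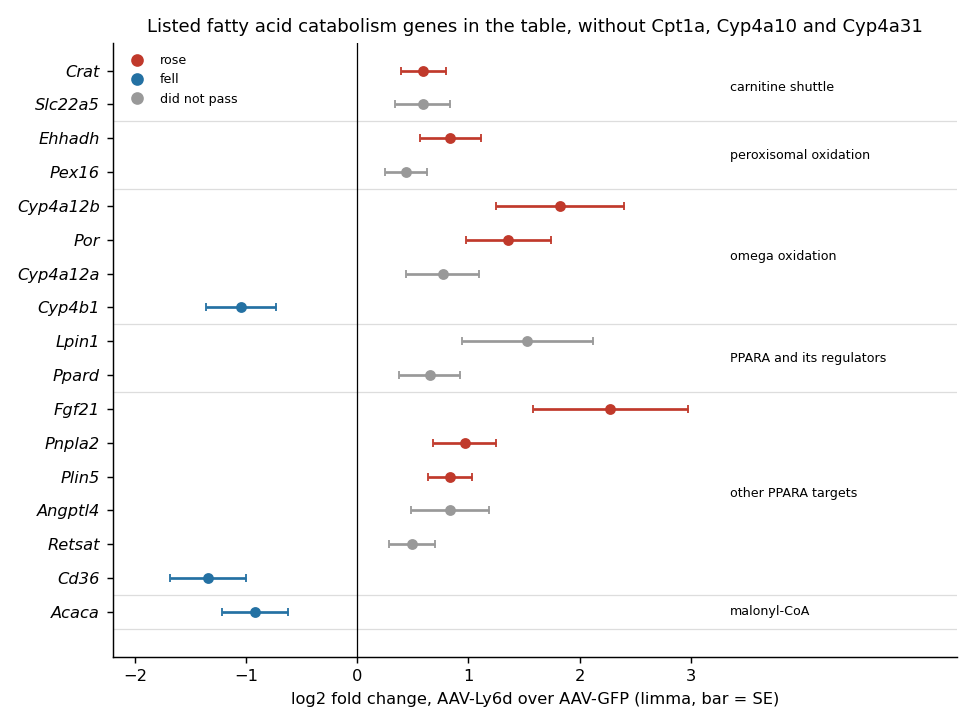
Log2 fold change (AAV-Ly6d over AAV-GFP, log2(value + 1) scale) with its SE from limma for 17 of the 18 other listed genes in the table, grouped by role, n = 3 libraries a group. Of the genes shown, 7 rose, 3 fell (Cyp4b1, Cd36 and Acaca) and the others did not pass.

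Fewer genes were called whenever 1 library was left out, which also makes that group smaller. These effects were not separated. When 1 AAV-Ly6d library was left out, limma called 0 of the 18 listed genes for replicate 1 (0.00% of all genes; 9 of the 18 had an unadjusted p under 0.05), 1 for replicate 2 (5.89%) and 0 for replicate 3 (1.08%; 11 unadjusted). When 1 AAV-GFP library was left out, it called 2 for replicate 1 (7.68%), 9 for replicate 2 (34.9%) and 3 for replicate 3 (7.97%). Crat and Ehhadh did not pass whichever library was left out (limma adjusted p of 0.0613 to 0.124 and of 0.0577 to 0.107). Without AAV-GFP replicate 2 their log2 fold changes were 0.47 and 0.71. With all libraries, Crat did not pass without the filter on low values (limma adjusted p = 0.0514). Nor did it pass with a filter of at least 10 in 3 libraries (0.0519). Rescaling libraries by their median ratio shifted the median over all tested genes from -0.67 to -0.33 (log2) and gave 0.93 for Cpt1a, 1.28 for Cyp4a10 and 1.82 for Cyp4a31. On that scale 13 of the 18 listed genes rose and 1 fell, against 36.6% and 16.3% of all tested genes. No direction of the 21 genes turned round under either rescaling tried.

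**Figure D4:**
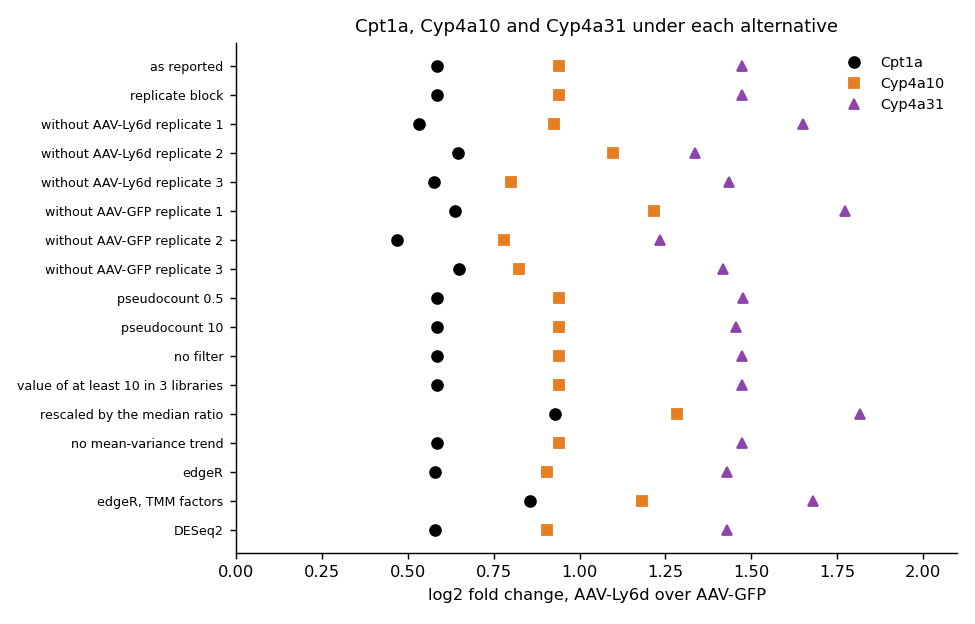
Log2 fold change of Cpt1a, Cyp4a10 and Cyp4a31 as reported and under each alternative. All values stay above 0, from 0.47 to 0.93 for Cpt1a, from 0.78 to 1.28 for Cyp4a10 and from 1.23 to 1.82 for Cyp4a31, and the order of the 3 genes is the same in each row.

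Profiles across libraries were compared without scaling each gene, so distances include the size of the group difference that chose the 3 genes. Likeness was measured as the root mean square difference of log2(value + 1) over the 6 libraries, each gene centred on its own mean, among 865 named genes at or above the median level of the tested genes (209). Cpt1a and Cyp4a10 differed by 0.33 on this scale, Cyp4a10 and Cyp4a31 by 0.41 and Cpt1a and Cyp4a31 by 0.57, against median distances to all candidates of 0.53, 0.54 and 0.68 for Cpt1a, Cyp4a10 and Cyp4a31. Each of them had nearer genes than the other two. The nearest to Cpt1a were Nedd4l, a ubiquitin ligase (0.07), the ribosomal protein gene Rpl18 (0.07), Serping1, the C1 inhibitor of complement (0.07), and Elob, a subunit of elongin (0.07). Nearest to Cyp4a10 were Apol9b (0.12), Rapgef4, a cAMP-activated exchange factor for Rap (0.14), Elmod3 (0.20) and the major urinary protein gene Mup3 (0.23), of which Apol9b and Mup3 have near copies. For Cyp4a31 they were Atoh8, a transcription factor gene (0.20), Gstp1, a glutathione transferase with near copies (0.21), Osgin1 (0.22) and Tbc1d8 (0.24).

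**Figure D5:**
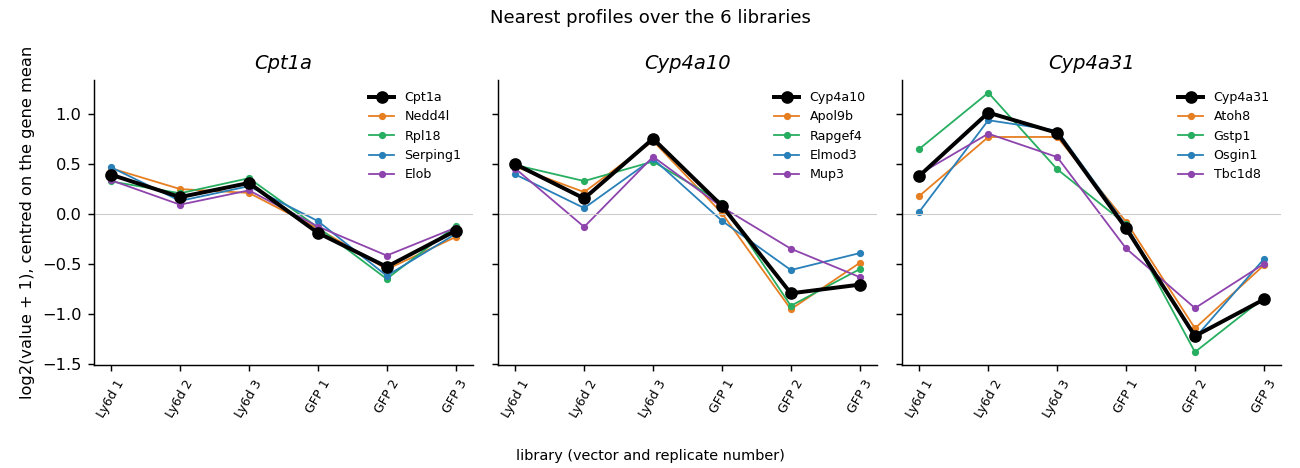
Log2(value + 1), centred on each gene's mean, in the 6 libraries for Cpt1a, Cyp4a10 and Cyp4a31 (black) and the 4 genes nearest to each (colours); lines only join the points of a gene. AAV-GFP replicate 2 is the lowest point of Cpt1a (-0.53), Cyp4a10 (-0.79) and Cyp4a31 (-1.22), and the highest is AAV-Ly6d replicate 1 for Cpt1a (0.39), replicate 3 for Cyp4a10 (0.75) and replicate 2 for Cyp4a31 (1.01).

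Markers of some other liver cells moved with the groups, in a table treated as chosen for a difference. Of the listed markers of macrophages (10), lymphocytes (9), neutrophils (7) and skeletal muscle (5), 0 are in the table, so they are not analysed here. Over all tested genes 28.0% fell and 15.9% rose. Of 13 listed endothelial markers 7 were tested and all 7 fell, with summed values of 2420 to 3014 in AAV-Ly6d and 6515 to 10284 in AAV-GFP. Of 12 stellate and fibroblast markers 6 were tested and 5 fell, with sums of 759 to 1670 in AAV-Ly6d and 2499 to 4347 in AAV-GFP, and of 6 erythroid markers 2 of the 5 tested fell. Of 15 hepatocyte markers 7 were tested, 5 rose and 6 were above 0 (median log2 fold change 0.77), and their sums were 490342 to 532642 in AAV-Ly6d and 379666 to 845862 in AAV-GFP, where the top is AAV-GFP replicate 2. Both cholangiocyte markers in the table, of 7 listed, rose, with sums of 303 to 1111 in AAV-Ly6d and 59.2 to 80.2 in AAV-GFP. Retn, the one adipocyte marker in the table, was too low to be tested. It was at 0 in all AAV-Ly6d libraries and ranged from 0 to 23.6 in AAV-GFP. In bulk liver RNA fewer cells of a type cannot be told apart from less RNA per cell, and the part of these shifts in the values of Cpt1a, Cyp4a10 and Cyp4a31 was not tested.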

How the data were processed

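RNA of 6 mouse liver libraries was sequenced, 3 AAV-Ly6d and 3 AAV-GFP. Bowtie 0.12.2 and mm10 are named in the submitters' processing notes, with no role. The read counter, whether it used strand, and the tool behind the scaling are not given in these sources. What was deposited is a signal per gene, labelled here normalised read counts: 100% of values were whole multiples of 1 step per library (within 0.001), the form of reads divided by a size factor. One read was worth 0.844 to 1.09. Depth of the whole libraries is unknown.

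Symbols came from GENCODE M21 (1833 of 1834 matched). The test was limma 3.58.1 (R 4.3.3) on log2(value + 1), with a mean-variance trend and no covariates. It covered 1780 genes that reached 1 in 3 or more libraries, and left out 54. "Rose" and "fell" mean a Benjamini-Hochberg adjusted p under 0.05; fold changes on this scale understate low genes. The test was first run on simulated counts with known changes. Coding sequences were aligned with Biopython 1.88.

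The genes described and the lists were chosen with earlier results of these data known. Named are Ly6d, all listed genes in the table except 1, which is counted but not reported here by name, and the 4 nearest profiles of each gene. Alternatives were replicate numbers as a block, leaving out 1 library at a time, other pseudocounts, filters and scaling, no trend, and edgeR 4.0.16 and DESeq2 1.42.0 on recovered reads; edgeR with TMM factors was added after seeing the data.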

Additional observations from a re-analysis of the deposited data

How the results depend on the processing

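The differences of Cpt1a, Cyp4a10 and Cyp4a31 stayed above 0 in all 16 alternatives. The log2 fold change of Cpt1a was 0.93 after rescaling by the median ratio and 0.86 in edgeR with TMM factors, further from the reported 0.58 than its spread between replicates. The number of calls was less stable. Over all genes, leaving out a library gave 0 to 607 calls in limma (773 at an unadjusted p under 0.05 where it was 0), and of the 18 listed genes 0 to 9; for log2 fold changes the ranges were 0.47 to 0.65 for Cpt1a, 0.78 to 1.22 for Cyp4a10 and 1.23 to 1.77 for Cyp4a31. With replicate numbers as a block limma called 48 genes and 0 listed ones (14 at an unadjusted p under 0.05). The labels do not say that the numbers pair libraries, and deviations of same-numbered libraries correlated at -0.020, -0.048 and -0.058 across genes. Without the trend 2 listed genes were called. On recovered reads edgeR called 465 genes and 5 listed ones, and DESeq2 1338 and 13. After rescaling by the median ratio 651 genes rose and 290 fell, and with TMM factors 668 and 299, against 283 and 499 as reported; the cause was not tested. Of the listed genes 0 reversed. Depth does not limit the 3 genes described, but 3 libraries a group do, and near copies limit Cyp4a10 and Cyp4a31.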
